A study of Mus musculus with 8 samples.

Results

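Voltage-gated calcium and sodium channels open when a cell depolarises, and the genes of their subunits were followed here in pituitaries of old and young mice. The set was made of gene rows whose symbols belong to the pore-forming calcium channel genes (Cacna1), their α2δ, β and γ subunits (Cacna2d, Cacnb, Cacng) or the sodium channel pore (Scn, ending in a) and β subunits (Scn, ending in b). It held 39 genes of 49585 gene rows, namely 10 calcium channel pores, 4 α2δ genes, 4 β genes, 8 γ genes, 9 sodium channel pores and 4 sodium channel β genes. The rule for the set goes by gene symbol and names no measured value. The old group was 4 whole-pituitary samples of wild-type C57BL/6 mice aged 18 to 24 months and the young group 4 whole-pituitary samples of the same strain aged 2 to 3 months, kept free of specific pathogens and, by the study's methods, cleared of blood by perfusion. The labels number the samples but do not tell whether each was 1 mouse, and the sex of these mice is not given in the sources used here, so p-values here cover only the spread between these samples, which may be technical. Polyadenylated RNA was sequenced and the authors deposited FPKM, that is fragment numbers corrected for exon length and library depth. The old libraries held 16098530 to 19272104 fragments and the young libraries 15042321 to 20429604. Of these, 3 ribosomal RNA repeat genes took 33.8 to 38.1% in old and 33.8 to 40.3% in young libraries. A further 9.05 to 11.6% in old and 11.99 to 14.1% in young libraries came from 7 hormone genes.

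Hormone cells of the pituitary are electrically excitable. Many of them fire spontaneously, calcium that enters during their action potentials triggers the release of hormone granules, and hypothalamic factors act partly by speeding or stopping this firing. A calcium channel is built around 1 Cacna1 protein, which forms the pore and sets the type: L-type pores give long-lasting currents, P/Q-, N- and R-type pores serve transmitter release at nerve terminals, and T-type pores open near the resting potential. The α2δ and β subunits carry pores to the membrane and tune their gating. Several γ genes encode partners of AMPA-type glutamate receptors rather than of calcium channels. Sodium channel pores carry the fast upstroke of the action potential and need no other subunit to conduct, while the β subunits alter gating and adhesion.

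Scn2a, a sodium channel pore best known from the axons of central neurons, was higher in old pituitary, and Cacna2d3, an α2δ subunit, was lower. These were the 2 of 35 genes tested that passed the threshold, an adjusted p under 0.05 from limma on log2(FPKM + 0.1) over all 23498 genes that averaged 0.1 FPKM or more. That is 2.86% of the set higher and 2.86% lower, against 1.86% of all genes tested higher, 0.472% lower and 2.33% in either direction. With 1 gene in each direction, these shares say little about the set. A further 10 genes had an unadjusted p under 0.05 and an adjusted p above 0.05. In all, 12 of 35 (34.3%) had an unadjusted p under 0.05, against 21.8% of all genes tested. Without old replicate 3, 7 channel genes and 3948 of 23453 genes in all did so. Of the 12, 10 had the higher mean in old pituitary (18.0% of all genes tested did so) and 2 the lower (3.79% of all). Cacna1s, Cacng1, Scn1a and Scn4b lay below the filter and were not tested.

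Most genes of the gland moved slightly upward on the deposited scale, and that shift touches each result. The median log2 fold change, old over young, was 0.15 over all genes tested and 0.21 over the 35 channel genes, of which 23 were above 0. Scaling the libraries by median-of-ratios factors brought the median of all genes to 0.01 and that of the channel genes to 0.07, with 20 above 0. The calls over all genes were 436 higher and 111 lower on the deposited scale and 211 higher and 220 lower after this scaling. Among the channel genes Scn2a and Cacna2d3 passed the threshold on both scales. The unadjusted p under 0.05, however, split into 10 higher and 2 lower channel genes on the deposited scale and into 4 higher and 6 lower after scaling, when 8.75% of all genes were higher and 8.49% lower at that p.

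**Figure D1:**
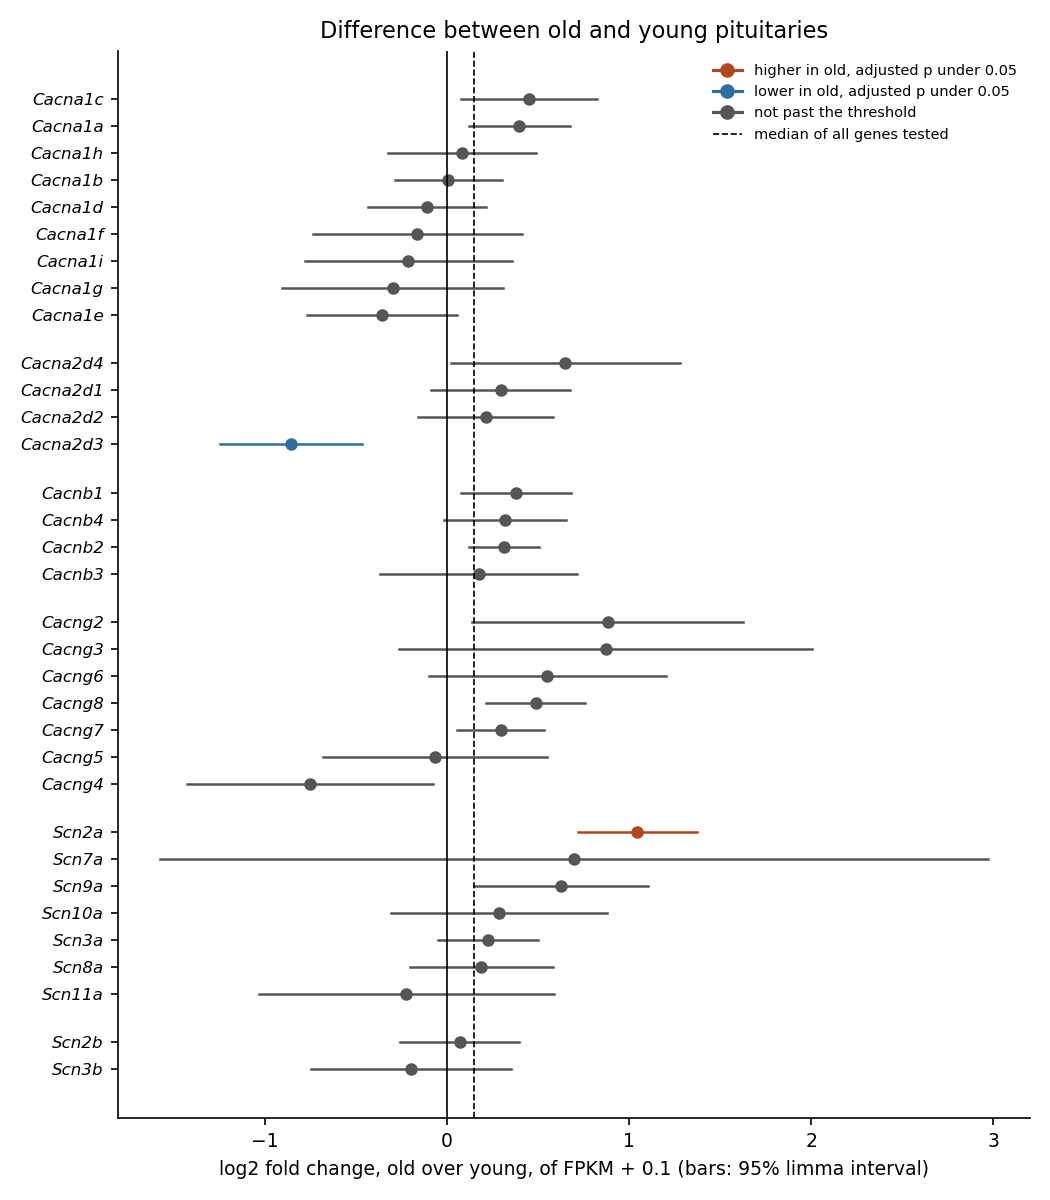
The log2 fold change of FPKM + 0.1, old over young, is drawn for 33 of the 35 channel genes tested, grouped by family from calcium channel pores at the top to sodium channel β subunits at the bottom, with 95% limma intervals as bars. The solid line is 0 and the dashed line the median of all genes tested, 0.15, and Scn2a at 1.05 and Cacna2d3 at -0.85 are the coloured points past the threshold.

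Scn2a lies at chr2:65620771-65767447 on the plus strand of GRCm38 by the GENCODE M21 annotation, inside a cluster of sodium channel pores that also holds Scn3a, Scn1a, Scn9a and Scn7a. Its level was 0.683, 0.625, 0.905 and 0.817 FPKM in old replicates 1 to 4, against 0.361, 0.266, 0.281 and 0.348 FPKM in young replicates 1 to 4. Every old library was above every young one, and the lowest old value stood well clear of the highest young value. The mean was 0.757 ± 0.127 FPKM in old and 0.314 ± 0.0474 FPKM in young pituitary (SD, n = 4 each), a 2.41-fold difference. On the log2 scale this was 1.05 with a standard error (SE) of 0.14 and a limma adjusted p of 0.0201. The values rest on 140 to 222 fragments in each old library and 51 to 81 in each young one. The adjusted p was 0.0525 without old replicate 1 and 0.0643 without young replicate 3, while the call held when any of the other 6 libraries was left out. With a pseudocount of 1, which weighs on low levels such as these, the log2 fold change was 0.42 and still passed. Scn2a made up 5.89 ± 0.684% of the summed FPKM of the 9 sodium channel pores of the set in old and 2.85 ± 0.398% in young pituitary (SD, n = 4 each). Marker genes of neurons and axons, some of which hormone cells are known to express too, summed to 40.8 to 52.0 FPKM in old and 29.3 to 37.8 FPKM in young libraries. Of these 7 markers, Tubb3, a neuronal tubulin, rose, Nefl and Nefm, neurofilament subunits, fell, and 4 did not pass the test. Tubb3 averaged 15.6 ± 4.09 FPKM in old and 4.89 ± 0.926 FPKM in young pituitary (SD, n = 4 each). Without Tubb3 the summed markers of old and young libraries overlapped. The part of these markers in the Scn2a difference was not tested. In whole tissue, fewer cells of a type and less RNA per cell cannot be told apart, which holds for every value given here.

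The annotation gives Scn2a separate start sites, and the RefSeq promoter windows of GRCm38.p6 (250 bases before to 50 after a start) hold 2 for this gene, shown with the window of Cacna2d3 because these are the genes past the threshold. Each window was searched on both strands for the TATA box TATAAA, the GC box GGGCGG, the cyclic AMP element TGACGTCA and TTCAGCACC, the left part of the element bound by the repressor REST, and capitals mark the matches.
Scn2a, upstream start, chr2:65620519-65620818, plus strand: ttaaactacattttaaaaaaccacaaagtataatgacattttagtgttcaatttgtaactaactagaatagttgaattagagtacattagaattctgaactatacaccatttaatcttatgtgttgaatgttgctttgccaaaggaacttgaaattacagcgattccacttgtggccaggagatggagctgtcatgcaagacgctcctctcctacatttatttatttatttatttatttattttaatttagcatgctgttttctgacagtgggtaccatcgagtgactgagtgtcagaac
Scn2a, downstream start, chr2:65668436-65668735, plus strand: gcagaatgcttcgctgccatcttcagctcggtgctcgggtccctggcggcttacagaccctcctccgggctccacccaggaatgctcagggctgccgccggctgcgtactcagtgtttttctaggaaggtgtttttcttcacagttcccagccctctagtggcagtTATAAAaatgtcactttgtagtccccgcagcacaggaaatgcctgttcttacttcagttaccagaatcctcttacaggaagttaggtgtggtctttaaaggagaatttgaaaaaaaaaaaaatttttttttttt
Cacna2d3, chr14:29721815-29722114, minus strand: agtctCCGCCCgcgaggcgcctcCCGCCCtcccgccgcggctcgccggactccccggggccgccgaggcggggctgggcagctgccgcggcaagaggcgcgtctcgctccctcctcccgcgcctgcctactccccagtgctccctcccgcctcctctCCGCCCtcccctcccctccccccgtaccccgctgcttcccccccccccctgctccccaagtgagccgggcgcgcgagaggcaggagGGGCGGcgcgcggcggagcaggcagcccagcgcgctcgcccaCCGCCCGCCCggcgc
The upstream Scn2a window had none of these letters and a GC content of 33.0%, with 3 CpG dinucleotides. The downstream window had 1 TATA box, beginning at position -84 from the start, a GC content of 47.7% and 9 CpG dinucleotides. The Cacna2d3 window was unlike both, with 6 GC box matches, of which the last pair overlap, a GC content of 81.3% and 41 CpG dinucleotides. The median over all 32851 windows was 52.7% GC and 7 CpG dinucleotides. A TATA box stood in 13.6% of all windows and in 2 of the 40 windows of the channel genes, in Scn2a and Cacna1d. A GC box stood in 35.7% of all windows and in 16 of the 40. The cyclic AMP element (1.79% of all windows) and the REST letters (0.371%) were in none of the 40. Windows were matched for 29 of the 39 genes, and a match is a description of letters, not of a binding site.

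Cacna2d3 lies at chr14:28904943-29721864 on the minus strand, on the same chromosome as the pore gene Cacna1d. Its level was 0.235, 0.293, 0.309 and 0.263 FPKM in old replicates 1 to 4, against 0.803, 0.432, 0.543 and 0.577 FPKM in young replicates 1 to 4. Each old library was below each young one, and young replicate 1 was the highest of the 8. The mean was 0.275 ± 0.0326 FPKM in old and 0.589 ± 0.156 FPKM in young pituitary (SD, n = 4 each), so that the old mean was 46.7% of the young mean. The log2 fold change was -0.85 (SE 0.17, limma adjusted p = 0.0485). This call stood close to the threshold and rested on 73 fragments over the 4 old and 155 over the 4 young libraries. It held without young replicate 2 (adjusted p = 0.0385) and was lost without any other single library: 0.116, 0.112, 0.0997 and 0.0907 without old replicates 1 to 4, and 0.0743, 0.116 and 0.0888 without young replicates 1, 3 and 4. The share of Cacna2d3 in the summed FPKM of the 4 α2δ genes was 1.58 ± 0.109% in old and 4.02 ± 0.783% in young pituitary (SD, n = 4 each).

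The other α2δ genes did not pass the test. Cacna2d1, which binds gabapentin and was by far the most abundant of the family, had 13.2, 14.5, 14.5 and 14.2 FPKM in old replicates 1 to 4, against 12.6, 8.27, 11.9 and 14.0 FPKM in young replicates 1 to 4. Young replicate 2 was low and the groups overlapped, with a log2 fold change of 0.30 (95% interval -0.08 to 0.68). Cacna2d4, known from photoreceptors, had 0.354, 0.285, 0.613 and 0.199 FPKM in old replicates, against 0.172, 0.119, 0.212 and 0.231 FPKM in young replicates. Its lowest old library lay among the young ones, and its log2 fold change of 0.65 had an adjusted p of 0.217 from limma. Cacna2d2, the other gabapentin-binding member, averaged 2.61 ± 0.291 FPKM in old and 2.26 ± 0.438 FPKM in young pituitary (SD, n = 4 each).

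**Figure D2:**
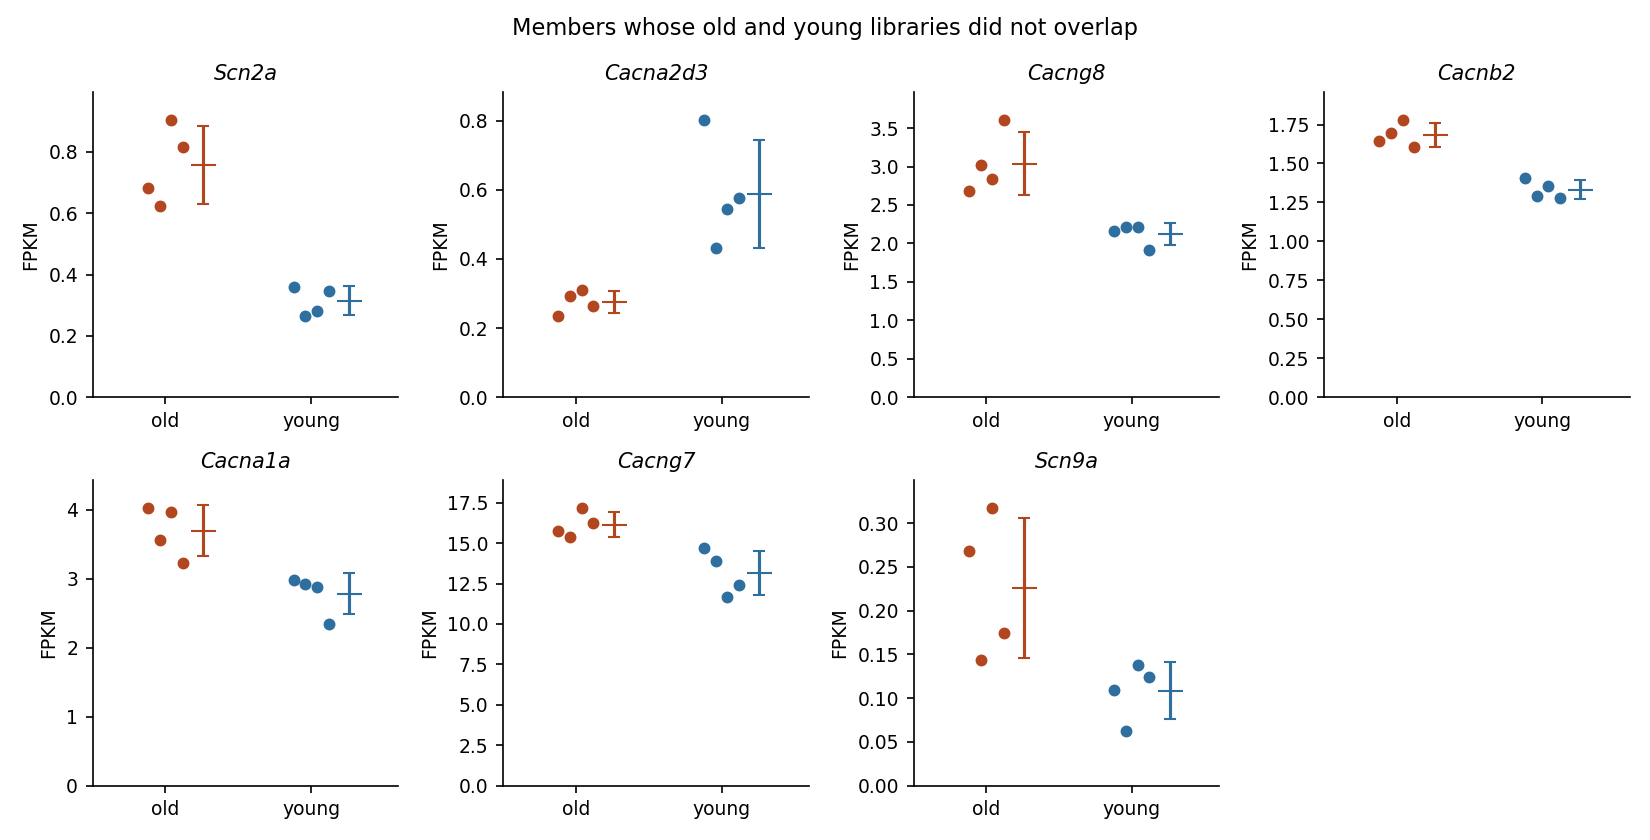
FPKM of the 7 channel genes whose old and young libraries did not overlap on the deposited scale, with a point per library, old left of young, and the mean ± SD (n = 4) beside the points. Cacna2d3 is lower in old pituitary and the other 6 are higher, and Scn2a has the largest ratio of old to young mean of the 7, at 2.41.

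On the deposited scale the old and young libraries of 7 of 35 channel genes did not overlap, which is 20% against 15.4% of all genes tested. In 6 of them every old library was above every young one (13.4% of all genes tested) and in 1 every old library was below (2.06% of all). After median-of-ratios scaling 2 of these 6, Scn2a and Cacng8, still had every old library above every young one, as against 5.66% of all genes, and Cacna2d3 still had every old library below, as did 5.75% of all genes. Cacna1a, Cacnb2, Cacng7 and Scn9a overlapped on that scale, so their separation is a property of the deposited FPKM.

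Calcium channel pores gave no call with limma, with 2 of 9 (22.2%) at an unadjusted p under 0.05, against 21.8% of all genes tested. Voom weights on fragments computed back from the FPKM gave 2 calls, both higher. Over all 23497 genes voom called 1385 higher and 349 lower. The summed FPKM of the 10 genes was 23.3 ± 2.22 in old and 23.2 ± 2.00 in young pituitary (SD, n = 4 each), and the shares by type overlapped between the ages: L-type pores took 46.2 ± 1.04% of this sum in old and 45.8 ± 3.17% in young libraries, and T-type pores 26.04 ± 2.10% in old and 30.0 ± 2.94% in young libraries (SD, n = 4 each). P/Q-, N- and R-type pores took 27.8 ± 2.26% in old and 24.2 ± 1.30% in young libraries (SD, n = 4 each). Their summed deposited FPKM did not overlap, at 6.20 to 6.85 in old and 5.22 to 5.98 in young libraries. On that scale 13.4% of all genes tested had every old library above every young one. Divided by the median-of-ratios factors, these sums overlapped. Cacna1d, an L-type pore that opens at fairly negative potentials and supports pacemaking, was the most abundant pore gene in each library. It had 6.34, 8.22, 8.48 and 7.78 FPKM in old replicates 1 to 4, against 8.47, 6.80, 8.96 and 9.03 FPKM in young replicates 1 to 4. The groups overlapped widely, and the log2 fold change of -0.11 had a 95% interval of -0.43 to 0.21. This interval leaves room for moderate differences in either direction on the deposited scale. After median-of-ratios scaling the log2 fold change of Cacna1d was -0.26, with an unadjusted limma p of 0.0419 and an adjusted p of 0.269. Cacna1d was thus among the 6 lower channel genes at an unadjusted p under 0.05 on that scale.

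Among the other L-type pores, Cacna1c, the main L-type pore of heart and smooth muscle, had 2.65, 2.39, 2.97 and 3.64 FPKM in old replicates, against 1.72, 2.18, 2.45 and 2.04 FPKM in young replicates. The lowest old value fell just below the highest young one. Its log2 fold change was 0.45 (SE 0.16, limma adjusted p = 0.166). Cacna1f, known from the retina, was low at 0.156 ± 0.0242 FPKM in old and 0.200 ± 0.106 FPKM in young pituitary (SD, n = 4 each). Cacna1s, the pore of skeletal muscle, had 0, 3, 1 and 1 fragments in old replicates 1 to 4 and none in any young library, where a count of 0 allows up to 3 fragments, and 19.98% of its exon length overlaps Gm37759 on the other strand.

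Cacna1a, the P/Q-type pore, had 4.02, 3.57, 3.96 and 3.23 FPKM in old replicates 1 to 4, against 2.98, 2.92, 2.89 and 2.34 FPKM in young replicates 1 to 4. Each old library was above each young one on the deposited scale, but the log2 fold change of 0.40 (SE 0.12) had an adjusted p of 0.119 from limma. Among the alternatives tried, Cacna1a passed the threshold only with voom (adjusted p = 0.0341), as did Cacna1c (adjusted p = 0.0482). After median-of-ratios scaling the log2 fold change was 0.25 for Cacna1a (limma adjusted p = 0.420) and 0.30 for Cacna1c (limma adjusted p = 0.356). The N-type pore Cacna1b averaged 2.56 ± 0.348 FPKM in old and 2.53 ± 0.215 FPKM in young pituitary (SD, n = 4 each), with a log2 fold change of 0.01 (95% interval -0.28 to 0.30). The R-type pore Cacna1e was far scarcer than Cacna1b, at 0.199 ± 0.0583 FPKM in old and 0.279 ± 0.0524 FPKM in young pituitary (SD, n = 4 each), and its log2 fold change was -0.36 (95% interval -0.77 to 0.06).

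All 3 T-type pores were detected, and none had an unadjusted p under 0.05 or passed with voom. Cacna1g averaged 2.66 ± 0.404 FPKM in old and 3.44 ± 1.33 FPKM in young pituitary, where young replicate 3 reached 5.22 FPKM (SD, n = 4 each). Cacna1h averaged 1.94 ± 0.410 FPKM in old and 1.81 ± 0.283 FPKM in young pituitary, and Cacna1i 1.502 ± 0.461 FPKM in old and 1.74 ± 0.411 FPKM in young pituitary (SD, n = 4 each). These are values with wide overlap between the ages.

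**Figure D3:**
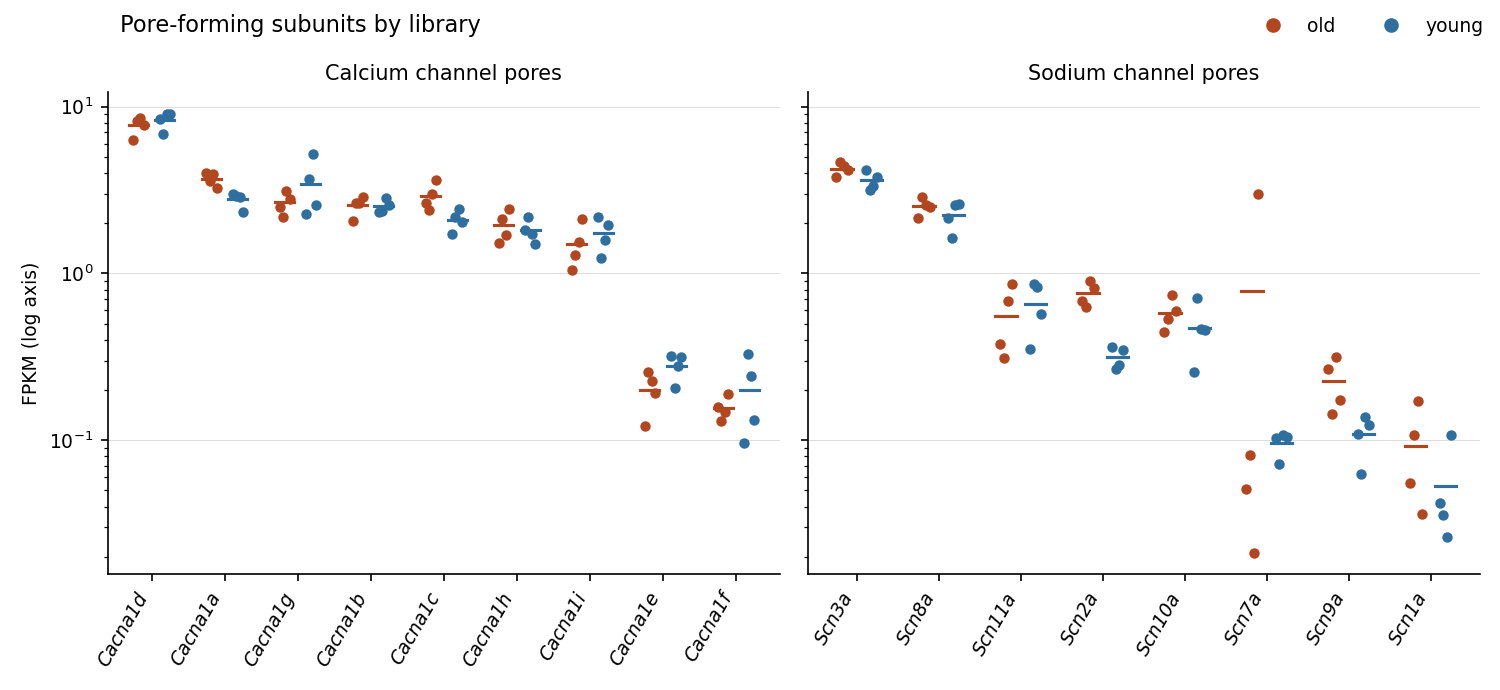
FPKM on a log axis for calcium channel pores (left) and sodium channel pores (right) described here, ordered by mean level, with a point per library, old left of young in each pair, and a bar at the mean of 4 libraries. Cacna1s is left out because it was at 0 in 5 libraries. Cacna1d is the highest calcium channel pore, Scn2a is separated by age, and old replicate 4 stands alone in Scn7a.

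The β subunits of calcium channels, which bind the pore inside the cell, gave 0 calls with limma or voom. At an unadjusted p under 0.05 from limma were 2 of 4 (50%), against 21.8% of all genes tested. All 4 log2 fold changes were above 0, with a median of 0.32, but after median-of-ratios scaling they were 0.02 to 0.24 and none had an unadjusted p under 0.05. Cacnb3, one of the most abundant channel genes at the 90.3th percentile of all genes tested by mean FPKM, had 13.3, 15.4, 18.3 and 10.2 FPKM in old replicates 1 to 4, against 15.2, 8.71, 12.6 and 14.1 FPKM in young replicates 1 to 4. Its libraries spread so widely within each age that the groups overlapped throughout, with a log2 fold change of 0.17 (95% interval -0.37 to 0.72).

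Cacnb2, a β subunit prominent in the heart, had 1.64, 1.70, 1.78 and 1.61 FPKM in old replicates, against 1.41, 1.29, 1.35 and 1.28 FPKM in young replicates. The libraries of each age lay close together and did not overlap with the other age on the deposited scale. On the log2 scale the difference was 0.32 (SE 0.08, limma adjusted p = 0.0912), and of the alternatives tried the gene passed only when genes under a mean of 1 FPKM were left out (adjusted p = 0.0481). Cacnb1, the β subunit of skeletal muscle that brain also expresses, had 1.88, 2.20, 2.50 and 2.16 FPKM in old replicates, against 1.98, 1.44, 1.61 and 1.59 FPKM in young replicates. Here young replicate 1 was above old replicate 1, and the log2 fold change of 0.38 (SE 0.13) had an adjusted p of 0.152 from limma. Cacnb4 averaged 1.11 ± 0.158 FPKM in old and 0.873 ± 0.140 FPKM in young pituitary (SD, n = 4 each), and 15.99% of its exon length overlaps A430018G15Rik on the other strand, so its fragments are uncertain. The same holds for 7.32% of the exon length of Cacnb2.

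The γ genes held 4 of the 12 genes with an unadjusted p under 0.05, 3 higher and 1 lower in old pituitary, and 0 calls with limma or voom. That is 4 of 7 γ genes tested (57.1%), against 21.8% of all genes tested, of which 18.0% were higher and 3.79% lower. After median-of-ratios scaling Cacng7 had a log2 fold change of 0.15 and an unadjusted limma p of 0.276. Cacng2 and Cacng8 (higher) and Cacng4 (lower) kept an unadjusted p under 0.05 on that scale. So few genes say little about the family. Cacng7 and Cacng8 lie side by side with Cacng6 on chromosome 7, at chr7:3332955-3368221 and chr7:3390683-3415648 on the plus strand. Cacng7, whose protein associates with AMPA receptors, was the most abundant γ gene and made up 72.0 ± 1.96% of the summed γ FPKM in old and 74.0 ± 3.13% in young libraries (SD, n = 4 each). It had 15.8, 15.4, 17.2 and 16.3 FPKM in old replicates 1 to 4, against 14.7, 13.9, 11.7 and 12.4 FPKM in young replicates 1 to 4. All old libraries were above all young ones by a small margin on the deposited scale, with a log2 fold change of 0.30 (SE 0.10, limma adjusted p = 0.159).

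Cacng8, another AMPA receptor partner, known from the hippocampus, had 2.68, 3.02, 2.83 and 3.61 FPKM in old replicates, against 2.16, 2.21, 2.21 and 1.91 FPKM in young replicates. The ages did not overlap on the deposited scale or after scaling. The difference was 0.49 on the log2 scale (SE 0.12, limma adjusted p = 0.0731), and of the alternatives tried the gene passed only with the filter at 1 FPKM (adjusted p = 0.0389). Another gene, Gm23450, lies on the same strand within 3.88% of its exon length. Cacng6, a neighbour related to the muscle γ subunit, averaged 1.36 ± 0.128 FPKM in old and 0.963 ± 0.460 FPKM in young pituitary (SD, n = 4 each), with young replicate 1 the highest of all 8 libraries at 1.59 FPKM.

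Cacng2, the AMPA receptor partner stargazin, had 1.04, 1.21, 0.866 and 0.394 FPKM in old replicates 1 to 4, against 0.443, 0.253, 0.453 and 0.476 FPKM in young replicates 1 to 4. In 3 old libraries the level was above every young one, and old replicate 4 lay among the young libraries. Its log2 fold change reached 0.88 (SE 0.32, limma adjusted p = 0.169). Cacng4, also an AMPA receptor partner, went the other way, with 0.417, 0.620, 0.232 and 0.272 FPKM in old replicates, against 0.911, 0.483, 0.561 and 0.841 FPKM in young replicates. Old replicate 2 was above 2 young libraries, and the log2 fold change of -0.75 (SE 0.29) had an adjusted p of 0.192 from limma. Cacng3 rested on 3, 16, 32 and 3 fragments in old replicates, against 1, 3, 3 and 6 fragments in young replicates, so its excess was in old replicates 2 and 3. Cacng5 averaged 0.348 ± 0.0936 FPKM in old and 0.380 ± 0.159 FPKM in young pituitary (SD, n = 4 each). Cacng1, the γ subunit of the skeletal muscle channel, had 1 fragment in old replicate 4 and none in the other 7 libraries.

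**Figure D4:**
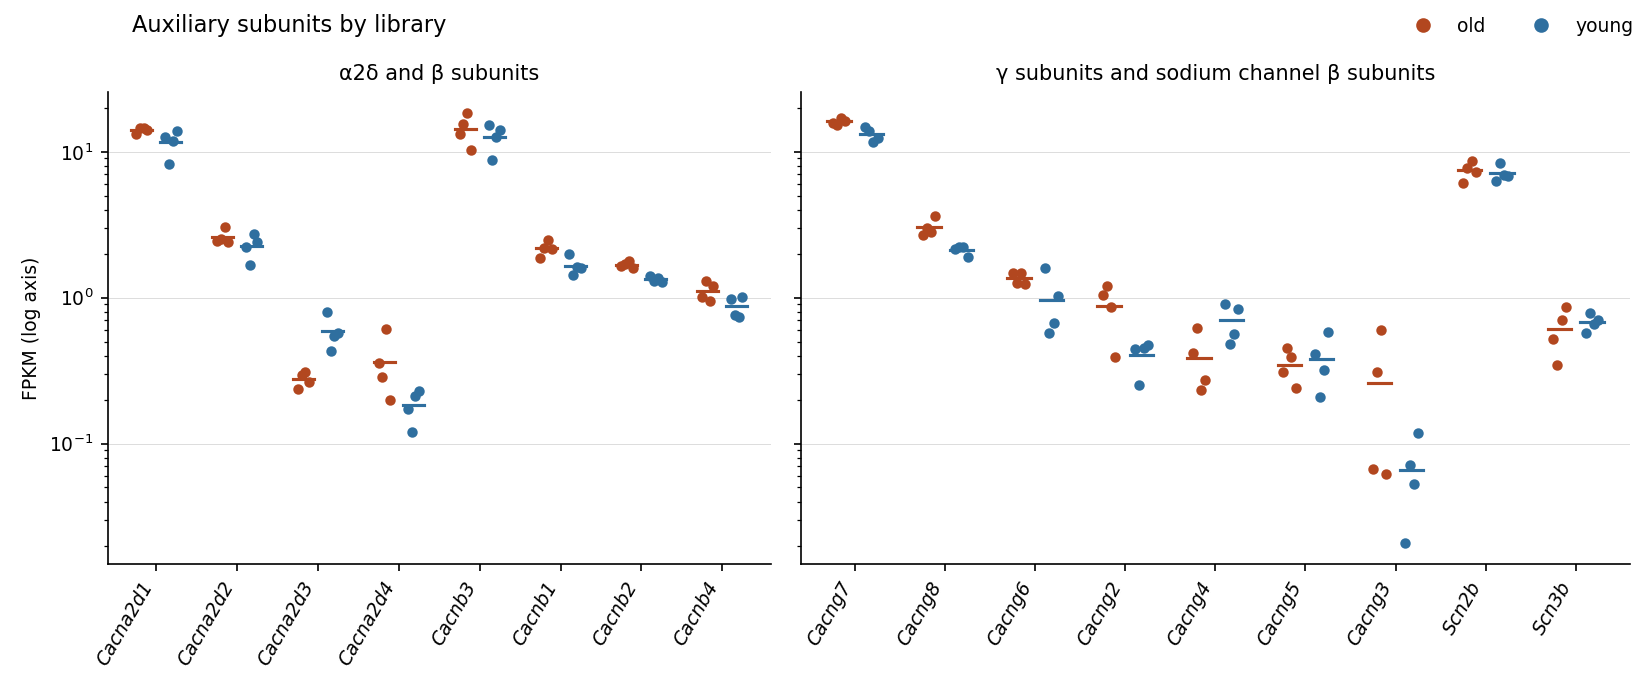
FPKM on a log axis for α2δ and calcium channel β subunits (left) and γ and sodium channel β subunits (right) described here, with a point per library, old left of young in each pair, and a bar at the mean of 4 libraries. Cacng1 and Scn4b are left out because they were at 0 in at least 1 library. Cacna2d3 is lower in old pituitary, and Cacna2d1, Cacnb3 and Cacng7 are the most abundant of their families.

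Among the sodium channel pores, Scn3a, a pore of developing neurons and of endocrine cells, was the most abundant on average. It had 3.76, 4.62, 4.37 and 4.17 FPKM in old replicates 1 to 4, against 4.15, 3.17, 3.34 and 3.77 FPKM in young replicates 1 to 4. The groups overlapped, with a log2 fold change of 0.23 (95% interval -0.05 to 0.50). Scn8a, the pore at nodes of Ranvier, averaged 2.53 ± 0.302 FPKM in old and 2.23 ± 0.453 FPKM in young pituitary (SD, n = 4 each). Scn3a took 33.2 ± 4.36% of the summed pore FPKM in old and 32.8 ± 3.92% in young libraries (SD, n = 4 each).

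Scn9a, a pore of sensory and sympathetic neurons that lies near Scn2a, was scarce. Its level was 0.267, 0.144, 0.317 and 0.175 FPKM in old replicates 1 to 4, against 0.109, 0.0625, 0.138 and 0.124 FPKM in young replicates 1 to 4. The lowest old library was only just above the highest young one, and the log2 fold change of 0.63 (SE 0.21) had an adjusted p of 0.143 from limma. The pores of pain-sensing neurons, Scn10a and Scn11a, did not pass the test. Scn10a averaged 0.578 ± 0.126 FPKM in old and 0.471 ± 0.186 FPKM in young pituitary, and Scn11a 0.557 ± 0.258 FPKM in old and 0.653 ± 0.238 FPKM in young pituitary (SD, n = 4 each). Scn1a, a pore of inhibitory neurons, had 10, 22, 37 and 7 fragments in old replicates, against 8, 6, 6 and 22 fragments in young replicates.

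Scn7a, an atypical member that senses extracellular sodium and is known from glia, was high in 1 library alone and is described for that reason, after its values were seen. It had 0.0508, 0.0811, 0.0212 and 3.00 FPKM in old replicates 1 to 4, against 0.103, 0.0725, 0.107 and 0.104 FPKM in young replicates 1 to 4. Old replicate 4 held 385 fragments, while the other old libraries held 3 to 11 and the young libraries 8 to 16. Without it the old mean was 0.0510 ± 0.0299 FPKM (SD, n = 3), below the young mean of 0.0966 ± 0.0162 FPKM (SD, n = 4). The log2 fold change over all 8 libraries was 0.70 with a 95% interval of -1.58 to 2.97.

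Markers of the posterior lobe stood apart in the same library. Their summed level was 9.39 FPKM in old replicate 4, against 1.06 to 1.76 FPKM in the other old libraries and 0.447 to 0.690 FPKM in the young ones. Outside old replicate 4 most of this sum was Col25a1, at 1.01, 1.04, 1.66 and 2.91 FPKM in old replicates 1 to 4. In young libraries Col25a1 was at 0.414 to 0.605 FPKM (log2 fold change 1.41, limma adjusted p = 0.0683), and voom called it higher. Oxt, the oxytocin gene, was at 4.68 FPKM in old replicate 4, at 0.231, 0 and 0.0966 FPKM in old replicates 1 to 3 and at 0 in all young libraries. Rax and Nkx2-1, transcription factors of pituicytes, were at 0.480 and 0.422 FPKM in old replicate 4, and Rax was at 0 in the other old libraries. The summed Schwann cell and oligodendrocyte markers, by contrast, were 6.79 to 7.64 FPKM over the 4 old libraries. Whether posterior-lobe tissue had a part in the Scn7a value was not tested. Without old replicate 4, Scn2a kept its call (1 channel gene higher, none lower) and Cacna2d3 lost it. Of all 23322 genes then tested, 239 were called higher and 73 lower.

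**Figure D5:**
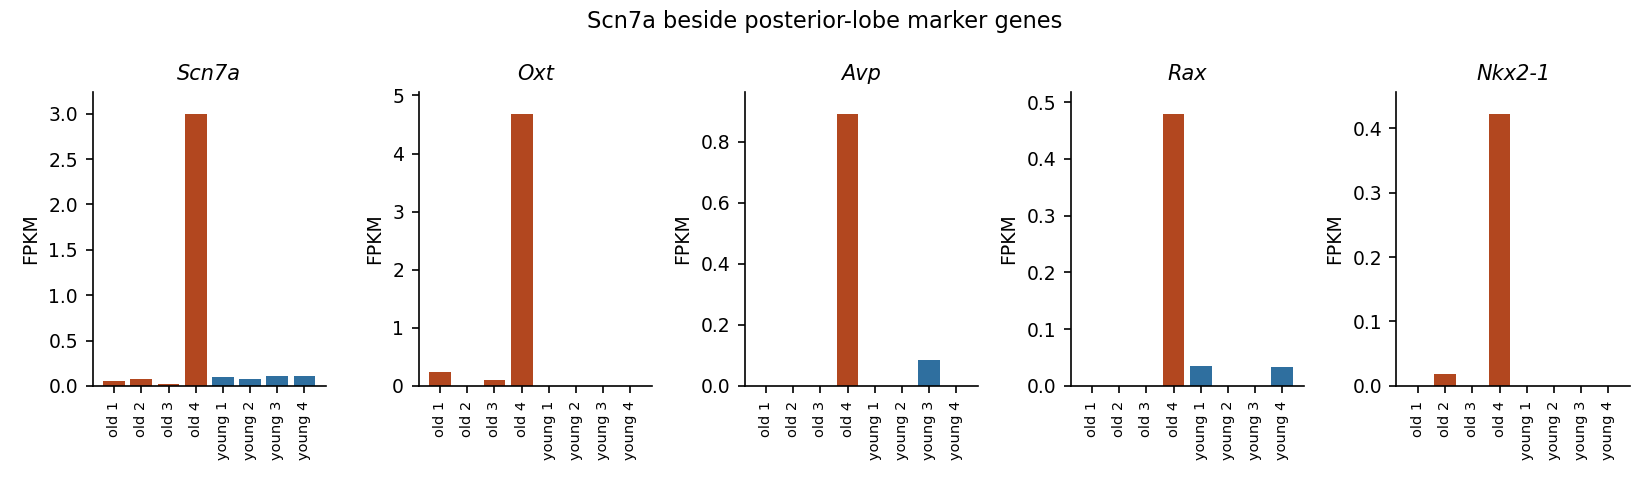
FPKM of Scn7a and of 4 posterior-lobe marker genes in each library, old replicates 1 to 4 left of young replicates 1 to 4, with a bar per library from 0. Old replicate 4 is the tallest bar in each panel, at 3.00 FPKM for Scn7a and 4.68 FPKM for Oxt.

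The sodium channel β subunits gave no call with limma or voom and no unadjusted p under 0.05. Scn2b, which is linked to the pore by a disulfide bond, was the most abundant. It had 6.12, 7.80, 8.69 and 7.29 FPKM in old replicates 1 to 4, against 6.32, 8.38, 6.92 and 6.78 FPKM in young replicates 1 to 4. The ages overlapped throughout, and the log2 fold change of 0.07 (95% interval -0.26 to 0.40) had the opposite sign after median-of-ratios scaling (-0.08). Scn3b averaged 0.608 ± 0.222 FPKM in old and 0.683 ± 0.0896 FPKM in young pituitary (SD, n = 4 each). Scn4b had 7, 7, 13 and 25 fragments in old replicates, against 0, 7, 6 and 3 fragments in young replicates. Its mean lay below the filter of 0.1 FPKM. With no filter its limma p was 0.0435 and its adjusted p 0.277.

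Levels between genes are comparable only as far as the exon lengths are. For 35 of the 39 genes the FPKM gave whole fragments with the exon length of GENCODE M21. The lengths that the authors' values implied were 9242 instead of 12621 bases for Cacna1d, 25130 instead of 25228 for Cacna1e, 3695 instead of 8720 for Cacna2d3 and 3120 instead of 4010 for Cacnb3. The length is the same in every library and leaves the ratio of old to young FPKM of a gene unchanged. Through the pseudocount of 0.1 and the filter it does enter the log2 fold change and p of low genes. Cacna2d3 is such a gene, with a log2 fold change of -1.04, -0.85 and -0.31 at pseudocounts of 0.01, 0.1 and 1. Its call with the GENCODE M21 length was not tested. Exons also overlap genes on the other strand, over 3.81% of the exon length of Cacna1a, 4.67% of Cacna1d, 5.86% of Cacng2 and 1.41% of Scn9a, and fragments there are uncertain because the strand setting is not given. Scn2a and Cacna2d3 share no exon bases with another gene.

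Regulators and partners of the channels were counted from lists chosen for their known roles. Over all genes tested, limma called 1.86% higher and 0.472% lower, and voom called 1385 of 23497 genes higher and 349 lower. Of 15 calcium channel partners, 1 fell and none rose with limma, while voom called 3 lower (Rrad, Gem and Rims1) and 1 higher (Calm2), and the median log2 fold change of the list was 0.10. Rrad, a small GTPase that blocks calcium channels through the β subunit, was that gene, with 0.788, 1.13, 1.05 and 0.834 FPKM in old replicates 1 to 4, against 2.66, 2.07, 2.14 and 1.98 FPKM in young replicates 1 to 4. Each old library was clearly below each young one, with a log2 fold change of -1.14 (SE 0.15, limma adjusted p = 0.0187), and the adjusted p was 0.0525 without old replicate 1 and 0.0579 without young replicate 3. Of its relatives, named after their values were seen, Gem averaged 2.13 ± 1.076 FPKM in old and 4.55 ± 1.68 FPKM in young pituitary (adjusted p = 0.177 from limma), and Rem2 9.13 ± 2.73 FPKM in old and 10.3 ± 1.26 FPKM in young pituitary (SD, n = 4 each). The genes next in order of adjusted p were Calm2, a calmodulin gene (log2 fold change 0.30, adjusted p = 0.117), Rims1, a scaffold of release sites (-0.95, adjusted p = 0.125), and Cabp1, a calcium-binding protein (0.49, adjusted p = 0.167), all from limma. Rims1 was scarce, at 0.0329 ± 0.0284 FPKM in old and 0.167 ± 0.108 FPKM in young pituitary (SD, n = 4 each). It passed the filter of 0.1 FPKM only through its young libraries.

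Of 22 genes of calcium stores and calcium clearance, 1 fell and none rose with limma, while voom called 3 lower (Ryr2, Atp2b4 and Slc8a2) and 1 higher (Ryr3), with a median log2 fold change of 0.11. Ryr2, the ryanodine receptor that releases calcium from internal stores in heart and brain, had 0.383, 0.376, 0.370 and 0.319 FPKM in old replicates 1 to 4, against 0.870, 0.659, 0.924 and 0.691 FPKM in young replicates 1 to 4. The old libraries were close to each other and all below the young ones. The log2 fold change was -0.93 (SE 0.13, limma adjusted p = 0.0209), and the call was lost without old replicates 1, 2 or 3 (0.0562, 0.0635 and 0.0536) or young replicates 1 or 3 (0.0576 and 0.0579). Atp2b4, a calcium pump of the plasma membrane, had a log2 fold change of -0.76 (adjusted p = 0.0568 from limma) and Slc8a2, a sodium-calcium exchanger, of -0.77 (adjusted p = 0.0624 from limma). Ryr3 had a log2 fold change of 0.70 (adjusted p = 0.141 from limma). Its level was low, at 0.163 ± 0.0972 FPKM in old and 0.0547 ± 0.0069 FPKM in young pituitary (SD, n = 4 each), and it passed the filter of 0.1 FPKM only through its old libraries.

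No partner of the sodium channels passed the limma test in 10 genes, whose median log2 fold change was 0.16, and 1 had an unadjusted p under 0.05. Sptbn4, the spectrin that anchors channels at the axon initial segment, had the smallest adjusted p (log2 fold change 0.45, adjusted p = 0.0742 from limma) and was called with voom, followed by the channel-binding factor Fgf12 (0.41, adjusted p = 0.265), the ubiquitin ligase Nedd4l (-0.24, adjusted p = 0.302) and Fgf13 (-0.37, adjusted p = 0.340). None of 4 genes of the sodium leak channel complex, which sets the resting potential of many excitable cells, passed either, with limma or voom, and none had an unadjusted p under 0.05. Nalcn, its pore, averaged 11.8 ± 0.668 FPKM in old and 10.97 ± 1.29 FPKM in young pituitary, above each sodium channel pore of the set in both ages, and its partner Unc80 11.02 ± 0.824 FPKM in old and 10.2 ± 1.22 FPKM in young pituitary (SD, n = 4 each).

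Marker genes of several cell types also differed between the ages. Hormone cell markers summed to 101376 to 129791 FPKM in old and 135872 to 160076 FPKM in young libraries, with 2 of 8, Gh and Lhb, lower and none higher. Macrophage markers summed to 26.2 to 33.7 FPKM in old and 11.1 to 19.9 FPKM in young libraries, with Ptprc and Lyz2 of 5 higher. Schwann cell and oligodendrocyte markers summed to 6.79 to 7.64 FPKM in old and 4.95 to 5.70 FPKM in young libraries, with Mbp higher among the 3 of 6 tested. Skeletal muscle markers summed to 3.58 to 8.28 FPKM in old and 1.13 to 2.06 FPKM in young libraries, through Pvalb, which was higher, while Myh1 and Myh4 stayed under 0.1 FPKM on average. Of 5 fibroblast markers Col1a1 was lower, with sums of 43.2 to 72.7 FPKM in old and 61.8 to 75.2 FPKM in young libraries. The stem cell markers summed to 7.83 to 9.91 FPKM in old and 9.89 to 13.4 FPKM in young libraries, with no call among 4 and 1 unadjusted p under 0.05, a lower one. Smooth muscle markers (17.3 to 35.6 FPKM in old and 20.2 to 31.9 FPKM in young libraries) and endothelial markers (16.2 to 26.1 FPKM in old and 16.5 to 23.5 FPKM in young libraries) overlapped without a call from limma, with 2 of 5 and 0 of 4 genes at an unadjusted p under 0.05 (voom called Myh11). The part of these markers in the channel gene values was not tested.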

How the data were processed

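Whole-pituitary samples, 4 old and 4 young, were profiled by paired-end sequencing of polyadenylated RNA. Per the submitters' notes and the study's methods, the authors aligned reads with STAR (2.6.1a) to GRCm38, counted fragments over Ensembl exons with featureCounts and computed the deposited FPKM with edgeR (3.28.1). Ensembl release and strand setting: not given in the sources used here. FPKM are not counts, so limma 3.58.1 (R 4.3.3) was fitted to log2(FPKM + 0.1) for the 23498 genes averaging 0.1 FPKM or more, two-sided, with Benjamini-Hochberg adjustment. Such fold changes understate those of low genes. Fragments were computed back with GENCODE M21 exon lengths, and 92.3 to 93.2% of low values were whole within 0.01. Intervals come from the limma fit and cover the spread between the libraries of each age. Floors (3 fragments) cover counting error only. No libraries of 1 age differed by less than sampling noise. Values in every library were given for genes with a p under 0.05 and the most abundant of each family. The members, lists, tests and alternatives were chosen with earlier results of these data known. Alternatives were other pseudocounts, filters, scalings, a variance trend, voom weights, a replicate block and leaving out each library in turn. Not every gene that the symbols take is reported here.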

Additional observations from a re-analysis of the deposited data

Results flagged for a closer look

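In 70 groups of 4 libraries, 1 per gene and age, 5 values stood far from the other 3 of their group by Dixon's criterion, where chance gives about 1 in 20 groups. Scn7a was at 3.00 FPKM in old replicate 4, with the next old library at 0.0811 FPKM. Scn7a was also low in young replicate 2, at 0.0725 FPKM with the next at 0.103 FPKM, which is a difference of a few fragments. Cacna1a was low in young replicate 4, at 2.34 FPKM with the next at 2.89 FPKM. Cacng2 was low in young replicate 2, at 0.253 FPKM with the next at 0.443 FPKM. Cacna2d2 was high in old replicate 3, at 3.04 FPKM with the next at 2.52 FPKM.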

How the results depend on the processing

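The number of channel genes called higher was 1, and it was 2 with a filter at a mean of 1 FPKM (Cacnb2 and Cacng8, while Scn2a lay under that filter), 3 with voom weights, and 0 to 1 when each library was left out. The number called lower was 1, and it was 0 with a pseudocount of 1 or 0.01, with no filter, with the filter at 1 FPKM and with a variance trend, and 0 to 1 when each library was left out. Over all genes the filter at 1 FPKM gave 796 calls higher and 123 lower of 14588, and no filter 263 and 80 of 32579. The pseudocount of 1 gave 689 and 138, that of 0.01 gave 322 and 83, and the variance trend 705 and 139. Leaving out each library gave 64 to 327 higher and 21 to 163 lower. The adjusted p of Cacna2d3 from limma was 0.0716, 0.0511, 0.0657 and 0.0667 with the pseudocounts of 1 and 0.01, with no filter and with the trend. The cause was not tested. The median log2 fold change of the channel genes was 0.21, and it was 0.0678 with median-of-ratios scaling, 0.0700 with upper-quartile scaling and 0.0837 with library totals without hormone and ribosomal RNA repeat genes, settings that brought the median of all genes from 0.15 to between 0.01 and 0.02. Over all genes these scalings gave 211, 213 and 212 calls higher and 220, 217 and 189 lower, against 436 and 111, and voom gave 1385 and 349. The channel genes with an unadjusted p under 0.05 were 12, and 7 without old replicate 3, 17 with voom and 9 to 10 with the scalings. Over all genes the numbers were 5112 of 23498, 3948 of 23453 without old replicate 3, 5712 of 23497 with voom and 4007 to 4049 with the scalings. Scn2b, not called, had a log2 fold change of 0.07, which was -0.0793, -0.0770 and -0.0628 with the 3 scalings and ranged between -0.0048 and 0.161 when each library was left out. With the replicate number as a replicate block, 0 channel genes were called higher and 0 lower, and 4 genes in all. The limma adjusted p was then 0.129 for Scn2a and 0.177 for Cacna2d3. The deviations of libraries of the same number had correlations of -0.088 to 0.057. So few pairs cannot tell whether the number stands for a shared batch, and the labels do not say. Genes under about 50 fragments a library, such as Cacna2d3, Cacng3, Scn1a and Scn4b, rest on few fragments, and the part of depth in their spread was not tested.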
